A study of Mus musculus with 17 samples.

Results

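Dmbt1, Pigr, Lcn2, Ltf, Slpi, Wfdc2, Reg3b, Reg3g, Lyz2 and Lyz1 encode secreted or secretion-linked defence proteins of mucosal surfaces, and their transcripts were followed through 17 RNA-seq libraries of mouse bile duct. These 10 genes were picked by symbol from the 43346 genes of the deposited table, as defence proteins of mucosal and biliary epithelium of which several were known to be among the most abundant genes. All 10 were found, and all 10 passed the filter on low counts, as did 19412 genes in all. Because abundance took part in the choice, the levels below are a description and carry no test.

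The mouse study concerns extrahepatic cholangiocarcinoma, the cancer that arises in the large ducts below the liver. Every sample is labelled as total RNA of bile duct, and the labels give no genotype, strain, treatment, age or tumour state, so there is 1 group and no comparison of conditions. Libraries are called by their column in the table, for instance R62848_1, in which R62848 is a code shared with R62848_2 and R62848_3. There are 6 codes, 5 with 3 libraries and 1, R63494, with 2, and what a code stands for is not stated. Whether libraries with different codes, or the libraries of 1 code, came from separate animals is not stated either, so the p-values below measure the spread between these libraries, which may be technical.

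Library totals lay between 16400556 and 24152314 counts, with a median of 17886041. The labelled tissue was checked against 12 markers of the cholangiocytes, its lining epithelium. All 12 passed the filter, and their summed level was 7454 to 10338 CPM (counts scaled to library size). Other tissues were represented unevenly. The 10 markers of pancreatic acinar cells summed to 5578, 22555 and 129650 CPM in the 3 libraries of code R62850. Elsewhere they summed to at most 35.2 CPM. The 5 gastric gland markers summed to 1033 to 1169 CPM in R62850 and to at most 879 CPM elsewhere. Of 6 intestinal markers, Cdx2, Muc2, Fabp2 and Alpi were highest in R62850_1, and Vil1 and Cdx1 in R63494.

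Bile duct epithelium meets bacteria that ascend from the gut, and like other mucosae it secretes a layered defence. The polymeric immunoglobulin receptor carries IgA from the tissue into the lumen, where scavenger proteins such as DMBT1 clump bacteria. Lipocalin 2 and lactoferrin withhold iron, WAP-domain proteins such as SLPI restrain leukocyte proteases, and C-type lectins of the Reg3 family and lysozymes attack the bacterial wall. Several of these proteins are also made by neutrophils, macrophages or Paneth cells, so tissue RNA can hold transcripts of more than 1 source. In bulk tissue, fewer cells of a type and less RNA per cell cannot be told apart.

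The 10 genes together held 4.65% of all counts in R63500_2, the lowest library (95% Wilson interval 4.64% to 4.66%), and 7.95% where they were highest, R63494_2 (7.94% to 7.96%), with a median of 5.92%. Dmbt1 alone accounted for 2.88% to 5.50% and was the gene with the most counts in all 17 libraries. Levels of different genes were compared as RPKM, computed from the counts, the library total and the gene length in the table. On that scale Dmbt1 led with a median of 5894 RPKM, and its lowest library lay above the highest library of every other gene of the 10. Lcn2 (median 2366 RPKM), Ltf (2110.4 RPKM) and Pigr (1589.8 RPKM) formed a middle tier. Neighbours within this tier were close: Lcn2 exceeded Ltf in 13 of 17 libraries and Ltf exceeded Pigr in 13 of 17, with overlapping ranges.

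Wfdc2 followed with a median of 910.7 RPKM and was below Pigr in all 17 libraries. Lyz2 had 425 RPKM, Slpi 255 RPKM, Reg3g 229.8 RPKM and Reg3b 77.6 RPKM. Slpi and Reg3g could not be ordered, since Slpi was the higher of the pair in 10 of 17 libraries. Lyz1 stood far below the others with a median of 5.21 RPKM and 48 to 185 counts per library. In the library where Lyz1 was lowest, its 55 counts were 0.000252% of the total, with a 95% Wilson interval of 0.000193% to 0.000328%.

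**Figure D1:**
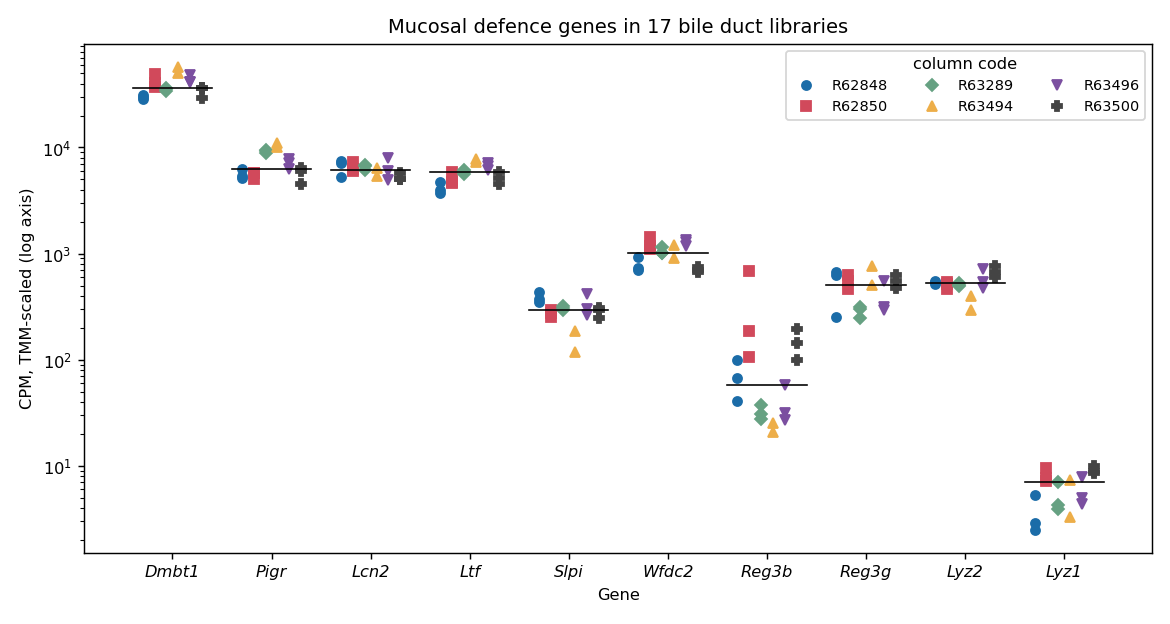
Level of each of the 10 genes in each of 17 bile duct libraries, in CPM on a log axis. Each point is 1 library, coloured and shaped by column code, and the bar is the median of 17; Dmbt1 is highest throughout, Lyz1 is lowest throughout, and Reg3b has the widest scatter, 20.8 to 680 CPM.

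Libraries that share a code resembled one another for most of the 10 genes. In edgeR's quasi-likelihood F test over the 6 codes, 41.9% of all tested genes differed at an adjusted p below 0.05, and so did 9 of the 10 defence genes, the exception being Lcn2. The distance between the highest and the lowest code mean had a median of 0.952 on the log2 CPM scale over the 10 genes, beside 0.714 over all 19412 genes tested. Their median SD within codes was 0.198, beside 0.228 over all genes. A median of 80.5% of the variance of the 10 genes lay between codes, beside 58.6% over all genes. These medians describe a small list chosen for abundance and have no test.

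The codes did not rank the genes in a common order. Dmbt1, Pigr, Ltf and Reg3g had their highest code mean in R63494, while Slpi, Reg3b and Lyz2 had their lowest there. R62848 held the highest means of Lcn2 and Slpi and the lowest of Dmbt1, Ltf and Lyz1. Other gene lists also set R63494 apart. Its 5 heat shock genes summed to 3518 and 3714 CPM, against 344.7 to 2138 CPM in the other codes, and its 6 fibroblast genes to 2507 and 2777 CPM, against 4120 to 11158 CPM. The part of either in the differences described here was not tested.

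**Figure D2:**
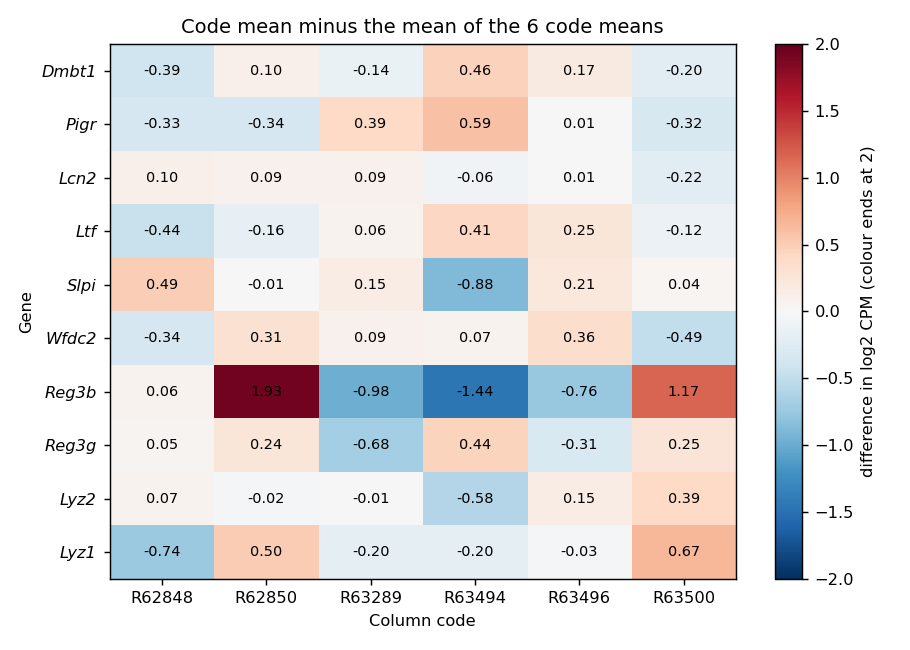
Heat map of code means for the 10 genes (rows) in 6 column codes (columns): each cell gives the code mean of log2 CPM minus the mean of the 6 code means, and the colour runs from -2 to 2. R63494 is above the mean for Dmbt1 (0.46), Pigr (0.59) and Ltf (0.41) and below it for Slpi (-0.88) and Reg3b (-1.44), and the Lcn2 row is nearly flat.

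Dmbt1 encodes a large secreted scavenger receptor protein that binds bacteria and IgA. The gene (ENSMUSG00000047517, mm10 chr7:131032076-131121626) lies within the annotated span of Fgfr2 on the opposite strand, and no source used here gives the strand setting of the counting. Over the 17 libraries it had a lowest level of 28403 CPM, a median of 36567 CPM and a highest of 57182 CPM. Both R63494 libraries, at 49824 and 57182 CPM, lay above every other library. The 3 R62848 libraries, at 28403 to 30951 CPM, were at the bottom and overlapped only with R63500_2 at 29147 CPM. The code means differed by 0.85 on the log2 scale, or 1.8-fold, R63494 over R62848 (edgeR adjusted p = 0.000233). The limma-trend F test on the same data gave the same distance with an adjusted p of 0.107, so this call depends on the test.

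Pigr encodes the receptor that takes up polymeric IgA at the base of epithelial cells and releases it, with a receptor fragment attached, into the lumen (ENSMUSG00000026417, chr1:130826684-130852249). Its level was 4559 CPM in the lowest library, 6304 CPM at the median and 10994 CPM in the highest. The 2 R63494 libraries (10119 and 10994 CPM) and the 3 R63289 libraries (8783 to 9542 CPM) lay above all others, which reached at most 7777 CPM. Within codes the libraries were tight: 89% of the variance lay between codes. R63494 was 1.91-fold over R62850 (log2 0.93, adjusted p = 1.89e-05).

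The cargo of Pigr was present at high but uneven levels. Igha, the IgA heavy chain, had 1344, 4258 and 7664 CPM in the lowest, median and highest library, and Jchain, which joins IgA monomers, had 235, 865.6 and 1902 CPM. Igkc, the kappa light chain, reached a median of 9694 RPKM, above that of Dmbt1. In edgeR's test none of the 6 tested genes of the IgA list differed between codes, beside 41.9% of all genes tested. Among them were Igha (adjusted p = 0.0882), Jchain (0.0621) and the plasma cell receptor Tnfrsf17 (0.108). Of these 6 genes, 3 had an unadjusted p below 0.05, DESeq2 called 1 and limma-trend called 3. Their distances between codes were large all the same, with a median of 1.22 on the log2 scale. Libraries of 1 code also differed: in R63496 the 5 plasma cell markers summed to 4891, 5306 and 14625 CPM. Pigr did not follow these markers within codes (Pearson's r = 0.135, exact within-code permutation adjusted p = 0.724; Spearman's rho = 0.00245, adjusted p = 0.995; n = 17). That r was -0.557 without R63500_2 and up to 0.578 without other single libraries.

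Lcn2 encodes lipocalin 2, which captures the siderophores by which bacteria take up iron (ENSMUSG00000026822, chr2:32384633-32388252). It was the steadiest of the 10 genes over the libraries, at 4925 CPM in the lowest, 6176 CPM at the median and 7896 CPM in the highest, a 1.6-fold span. Both ends came from 1 code, R63496, so that libraries of 1 code were as far apart as any. The code means spanned 0.32 on the log2 scale, R62848 over R63500, a smaller distance than for most genes (percentile 15.4 of all genes tested), and did not differ (adjusted p = 0.375, and 0.133 to 0.889 over 29 alternative settings).

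Ltf encodes lactoferrin, an iron-binding protein of secretions and of neutrophil granules (ENSMUSG00000032496, chr9:111019292-111042766). It had 3764, 5816 and 7741 CPM in the lowest, median and highest library. As with Dmbt1, both R63494 libraries (7259 and 7741 CPM) were above all others, and R62848 (3764 to 4684 CPM) was at the low end, overlapping with R62850 and R63500. R63494 was 1.81-fold over R62848 (log2 0.86, adjusted p = 0.000291). Ltf and Lcn2 therefore stood in different proportions: the ratio of Lcn2 to Ltf in RPKM was 1.88 in R62848_2 and 0.724 in R63494_2, with a median of 1.15.

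Both genes are also neutrophil granule genes, and the neutrophil markers were read beside them. The 13 markers, of which 10 passed the filter, summed to 592 and 929 CPM in R63494, where Ltf was highest, against 982 to 1764 CPM in R62848, where it was lowest. Most of that sum came from genes of mature neutrophils: S100a8 had 69.0, 252 and 462 CPM in the lowest, median and highest library, S100a9 80.1, 335 and 621 CPM, and the receptor gene Csf3r 86.6, 323 and 428 CPM. Markers of primary granules, which form early in the marrow, were at or near 0: Mpo had no count in 13 libraries and Elane none in 14. Genes of later granules were low. Camp was also at or near 0, with no count in 8 libraries and at most 1.14 CPM. Ngp was 7.07 to 10.2 CPM in R62848 and lower elsewhere, with no count in 2 libraries. Mmp8, a collagenase of neutrophil granules, had 2.97 to 44.7 CPM with its highest value in R62848_3. Retnlg had 4.17 to 105 CPM and Cd177 1.82 to 14.5 CPM, both highest in R62848_2. The part of neutrophil transcripts in the Lcn2 and Ltf values was not tested.

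Within codes, Lcn2 and the neutrophil score (the mean log2 CPM of the 13 markers) had r = 0.724 (exact permutation adjusted p = 0.0469) and rho = 0.63 (adjusted p = 0.0982; n = 17), which does not pass on both measures. Without R62850 the pair passed, with r = 0.863 (adjusted p = 0.027) and rho = 0.833 (adjusted p = 0.0328). Without R62850_1 or R62850_2 alone it passed as well, with r = 0.839 and 0.812. In the other direction, r was 0.611 without R62848_1 (adjusted p = 0.192), 0.6 without R63496_3 (adjusted p = 0.125) and 0.624 with a prior count of 0.5 (adjusted p = 0.105). For Ltf and the neutrophil score r was 0.439 (adjusted p = 0.224). Lcn2 and Ltf themselves had r = 0.633 (adjusted p = 0.0469) and rho = 0.603 (adjusted p = 0.0982), and likewise did not pass on both.

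**Figure D3:**
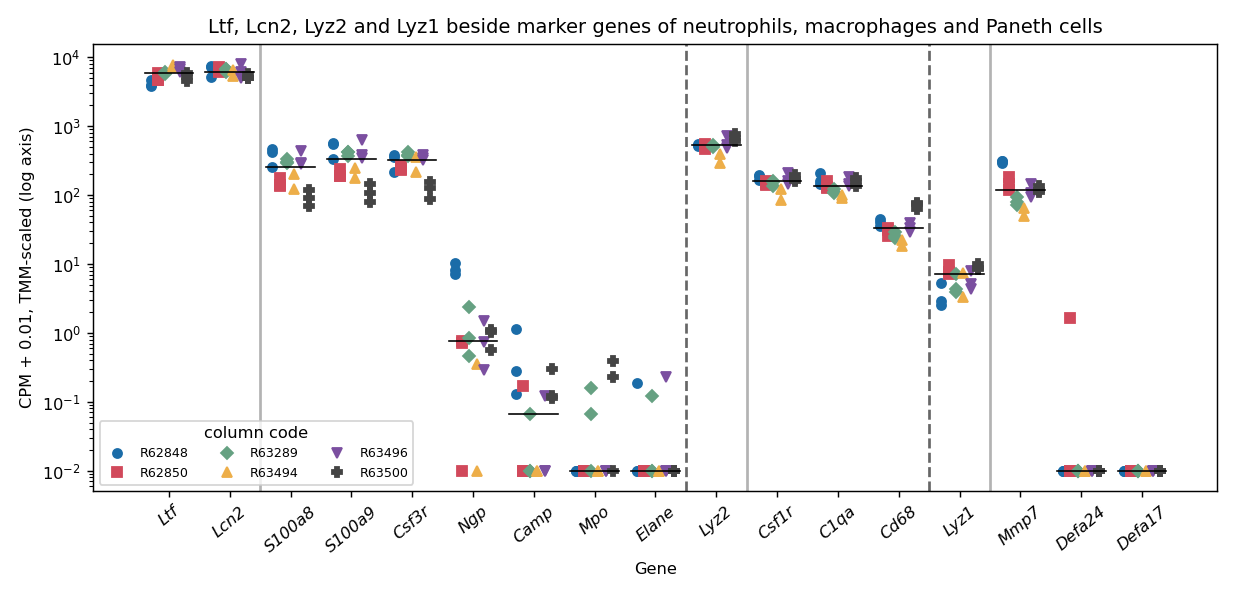
Levels of Ltf, Lcn2, Lyz2 and Lyz1 beside markers of cells known to make them, as CPM + 0.01 on a log axis with 1 point per library, coloured by column code; dashed lines separate the neutrophil, macrophage and Paneth cell parts, solid lines set the defence genes apart from the markers, and bars are medians. Ltf and Lcn2 lie at 3764 CPM or above. Of the neutrophil markers, S100a8, S100a9 and Csf3r lie between 69.0 and 621 CPM, Ngp reaches 10.2 CPM, and Camp, Mpo and Elane lie at or near 0. R63494 is lowest for Lyz2 as for Csf1r and C1qa, and the alpha-defensin genes are at 0 in nearly all libraries.

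Of 7 other genes of iron and zinc withholding, 6 passed the filter and all 6 differed between codes, beside 41.9% of all genes tested. Trf, the serum iron carrier transferrin, had 990, 1540 and 2723 CPM in the lowest, median and highest library, and Hp, which binds free haemoglobin, 23.7, 79.7 and 217 CPM. Both were highest in R62848 and lowest in R63494, the reverse of Ltf: the code means differed by 0.98 for Trf (adjusted p = 0.00384) and 2.28 for Hp (adjusted p = 0.00165). S100a8 and S100a9, the calprotectin subunits that bind zinc and manganese, were highest in R62848 and lowest in R63500 (log2 distance 1.997 and 2.13, adjusted p = 1.18e-05 and 8.47e-06).

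Slpi and Wfdc2 are small secreted proteins built from WAP domains, and SLPI inhibits neutrophil elastase and cathepsin G. Slpi (ENSMUSG00000017002, chr2:164354070-164389095) had 119 CPM in the lowest library, 296 CPM at the median and 439.6 CPM in the highest. R62848 had 351 to 439.6 CPM, a range it shared with R63496_3 at 415 CPM. The 2 R63494 libraries, at 119 and 188 CPM, lay below every other library, all of which were at 250.1 CPM or more. R62848 was 2.59-fold over R63494 (log2 1.38, adjusted p = 0.000562). Without R63494 the distance between codes was 0.47 (adjusted p = 0.046). Across this pair of codes Dmbt1 and Ltf stood in the opposite order.

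Wfdc2, also called HE4, a protein of airway and genital epithelium that is raised in several carcinomas in people (ENSMUSG00000017723, chr2:164562413-164568510), had 678, 1018 and 1430 CPM in the lowest, median and highest library. R63496, at 1187 to 1343 CPM, and R62850, at 1114 to 1430 CPM, were at the top. The lowest values were those of R63500 (678 to 742 CPM) together with R62848_2 (735 CPM) and R62848_3 (708 CPM), and all others lay at 909 CPM or above. R63496 was 1.80-fold over R63500 (log2 0.85, adjusted p = 0.000131). The ratio of Wfdc2 to Slpi in RPKM separated codes, at 6.62 and 7.93 in R63494 and 2.02 to 2.21 in R62848, with a median of 3.59 over all libraries. Within codes the pair had r = 0.611 (exact permutation adjusted p = 0.111) and did not pass.

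Among 9 tested genes of the WAP and protease inhibitor list, 6 differed between codes, beside 41.9% of all genes tested. The farthest apart of those with a high level was Wfdc18, another WAP gene, with 133, 690.3 and 1621 CPM in the lowest, median and highest library, R63494 over R62848 by 3.10 on the log2 scale (adjusted p = 4.44e-07). Wfdc21 went the other way, R62848 over R63494 by 2.61 (adjusted p = 0.000524), at 0.817 to 14.2 CPM. Serpinb1a, an inhibitor of neutrophil proteases, stayed within 138 to 231 CPM (log2 0.57, adjusted p = 0.00165). Wfdc12, at 36.0 to 104 CPM, did not pass (adjusted p = 0.0657). Elane and Ctsg, the proteases that SLPI restrains, did not pass the filter on low counts, at no more than 0.22 and 0.0518 CPM. Prtn3, which encodes the related proteinase 3, had 0.111 to 1.72 CPM (adjusted p = 0.617).

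Reg3b and Reg3g encode small C-type lectins that bind peptidoglycan. They are best known from the intestine, where they act against bacteria near the epithelium, and Reg3b, or pancreatitis-associated protein, is also induced in the inflamed pancreas. The genes lie close together on chromosome 6, Reg3b at chr6:78370885-78373466 (ENSMUSG00000071356) and Reg3g at chr6:78466269-78468872 (ENSMUSG00000030017). Their coding sequences, of 525 and 522 bases, are 76% identical, with no identical run over 35 bases, and share no word of 50 bases with each other or with another gene. Their promoters resemble one another as well, and the 120 bases before each start are printed below because this pair moved together within codes yet parted between codes. Sequences are from RefSeq (GRCm38.p6), given 5′ to 3′ on the gene's strand, and capitals mark bases that differ from the partner in a pairwise alignment.
Reg3b, chr6:78370765-78370884, plus strand: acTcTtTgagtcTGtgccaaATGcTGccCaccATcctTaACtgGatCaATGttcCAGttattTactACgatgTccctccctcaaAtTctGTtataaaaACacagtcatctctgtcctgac
Reg3g, chr6:78468875-78468994, minus strand: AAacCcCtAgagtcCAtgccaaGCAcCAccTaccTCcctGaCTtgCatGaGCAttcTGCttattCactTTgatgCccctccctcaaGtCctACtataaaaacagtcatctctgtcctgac
The alignment has 122 columns, of which 86 are identical (70.5%) and 4 hold a gap. The longest identical run, of 20 bases, ends at the start site. The letters TATAAA stand 29 bases before the start of Reg3b and 27 before that of Reg3g. On the gene's own strand they occur in 4.19% of 32817 mouse promoter windows of this length, and on either strand in 6.35%. Apart from the Reg3 pair, none of the members with a promoter in the table holds them in this window. A match of letters is a description and not evidence of a bound factor.

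Reg3b was the most uneven of the 10 genes. It had 20.8 CPM in the lowest library, 58.0 CPM at the median and 680 CPM in the highest, a 32.7-fold span. The R62850 libraries had 107, 185 and 680 CPM and the R63500 libraries 99.6, 143 and 196 CPM, while R63494, with 20.8 and 25.3 CPM, lay below all others. Only R62848_2, at 100.5 CPM, came within the range of the high codes. R62850 was 10.3-fold over R63494 (log2 3.37, adjusted p = 3.86e-05), a distance at percentile 97.9 of all genes tested. Reg3b also varied within codes, with an SD of 0.73 on the log2 scale. Without the single library R62850_3 the distance was 2.62 (adjusted p = 2.15e-05), and without R62850 as a whole it was 2.601 (adjusted p = 6.14e-05).

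R62850 is the code with the most acinar RNA, and there Reg3b and the acinar markers had the same order. Its libraries also had the highest gastric gland sums, and R62850_1 the highest Cdx2, Muc2, Fabp2 and Alpi of the intestinal markers. The part of any of these tissues in the Reg3b values was not tested. The acinar sum was 5578 CPM in R62850_1, 22555 CPM in R62850_2 and 129650 CPM in R62850_3, beside 107, 185 and 680 CPM of Reg3b. In R63500, where Reg3b was next highest, the acinar sum was 7.50 to 23.9 CPM, and in R63494, where Reg3b was lowest, it was 13.7 and 35.2 CPM. Within codes Reg3b and the acinar score had r = 0.59 (exact permutation adjusted p = 0.224) and rho = 0.35 (adjusted p = 0.332), and without R62850 r was -0.0138. Other lectins were also highest in that code. Reg1, known from acinar cells, had 1937 CPM in R62850_3 against a median of 48.5 CPM, Reg2 had 3335 CPM against 2.07 CPM, and Zg16, a lectin of secretory granules, 2565 CPM against 0.279 CPM.

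Reg3g did not share this pattern. It had 248 CPM in the lowest library, 505 CPM at the median and 766 CPM in the highest, a 3.08-fold span. R62850_3, the library with the highest Reg3b, had 631 CPM of Reg3g, above the median but below R63494_1 at 766 CPM. The highest code mean was that of R63494 (505 and 766 CPM), where Reg3b was lowest, and the lowest was R63289 (248 to 314 CPM). This distance of 1.12 on the log2 scale passed narrowly (adjusted p = 0.0389) and lost its call when any of 10 of the 17 libraries was left out (adjusted p 0.0503 to 0.129) or when R62850, R63289, R63494 or R63500 was left out whole (0.0519 to 0.4).

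The ratio of Reg3g to Reg3b in RPKM brought the difference out. It was 8.71 and 10.9 in R63494, 3.01 to 3.54 in R63289, 3.33 to 4.14 in R63496, 2.26 to 3.37 in R62848, 1.15 to 1.69 in R63500 and 0.333 to 1.85 in R62850. R63494 thus lay apart from all other codes, and R62850_1 was the 1 library of R62850 above the range of R63500. Once code means were removed, the 2 genes moved together: r = 0.628 (exact permutation adjusted p = 0.0418) and rho = 0.819 (adjusted p = 0.0148) over 17 libraries. Of 10 pairs examined this was the one that passed on both measures. Without the 2 libraries farthest from the median of Reg3b, R62850_3 and R63500_1, r was 0.778 but the pair no longer passed (adjusted p = 0.139). It also failed to pass without any 1 of 11 libraries (adjusted p 0.0527 to 0.125). Over all 17 omissions of 1 library r lay between 0.567 and 0.785. With a whole code left out, the pair did not pass without R62848, R63289, R63496 or R63500. It passed without R62850 (r = 0.883, adjusted p = 0.0116) or R63494 (r = 0.633, adjusted p = 0.0424). The direction thus held, while the call depended on which libraries were included.

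**Figure D4:**
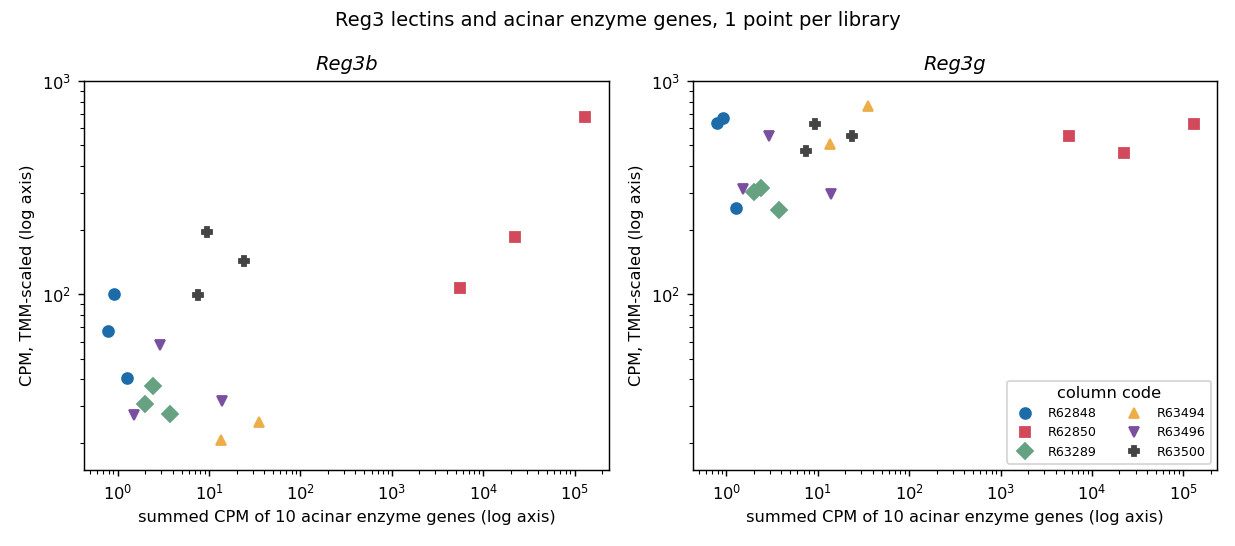
Reg3b and Reg3g in CPM (vertical, log axis) against the summed CPM of 10 pancreatic acinar genes (horizontal, log axis), 1 point per library in the colour of its column code. The R62850 libraries sit far to the right at 5578 to 129650 CPM, where Reg3b reaches 680 CPM, whereas Reg3g stays between 248 and 766 CPM across the whole axis.

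Lyz2 and Lyz1 encode the 2 mouse lysozymes, which cut peptidoglycan. Lyz2 is the lysozyme of macrophages and other myeloid cells, and Lyz1 that of Paneth cells in the small intestine. The genes are neighbours on chromosome 10, Lyz2 at chr10:117277334-117282274 (ENSMUSG00000069516) and Lyz1 at chr10:117287796-117292868 (ENSMUSG00000069515). Their coding sequences of 444 bases are 95% identical, and the longest identical run is 118 bases. The coding part of the first exon is printed because it shows how reads of these genes can be told apart or not. It is from the GENCODE M21 annotation of GRCm38, on the minus strand and 5′ to 3′, and capitals mark the bases that differ.
Lyz2, chr10:117282107-117282242: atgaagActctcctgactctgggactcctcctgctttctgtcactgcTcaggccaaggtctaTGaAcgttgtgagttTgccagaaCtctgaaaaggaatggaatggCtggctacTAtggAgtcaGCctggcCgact
Lyz1, chr10:117292703-117292838: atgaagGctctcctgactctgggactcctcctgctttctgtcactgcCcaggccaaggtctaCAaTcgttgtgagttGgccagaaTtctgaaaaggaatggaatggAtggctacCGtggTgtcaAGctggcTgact
Of these 136 bases 122 are identical (89.7%), with no identical run over 40. Over the whole transcripts, 195 of 1267 words of 50 bases in Lyz2 (15.4%) also occur in Lyz1, and 195 of 1214 in Lyz1 (16.1%) also occur in Lyz2. No source used here says how reads in such stretches were counted, so the low values of Lyz1 beside its abundant neighbour are uncertain.

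Lyz2 had 295 CPM in the lowest library, 525 CPM at the median and 758 CPM in the highest. R63500, at 601 to 758 CPM, was highest, overlapping with R63496_3 at 717 CPM, and both R63494 libraries, at 295 and 401 CPM, lay below all others. R63500 was 1.96-fold over R63494 (log2 0.97, adjusted p = 0.00217). Without R63494 the distance was 0.39 and no longer passed (adjusted p = 0.0652), so the call rests on that code.

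The macrophage markers were likewise high in R63500 and lowest in R63494. Their summed level, from 11 genes that all passed the filter, was 747 to 932 CPM in R63500 and 429 and 527 CPM in R63494. The other codes did not keep this order: the sum was 804 to 896 CPM in R62848 and 549 to 620 CPM in R63289, with Lyz2 at 522 to 554 CPM in R62848 and 501 to 525 CPM in R63289. Csf1r, the receptor for the macrophage growth factor, had 86.0, 159 and 207 CPM in the lowest, median and highest library, and C1qa, a complement subunit made by macrophages, 91.2, 137 and 212 CPM. Within codes Lyz2 and the macrophage score had the highest r of the 10 pairs, 0.874 (exact permutation adjusted p = 0.0469), with rho = 0.804 (adjusted p = 0.081), and so missed the threshold on rho. It passed on both without R62850_1 (r = 0.894) or without R63289_3 (r = 0.92). With most other single libraries left out it passed on neither, for instance R63496_3 (r = 0.762, adjusted p = 0.125) or R63500_1 (r = 0.861, adjusted p = 0.111). The same held without the code R62848 (adjusted p of r = 0.0829), R62850 (0.0592), R63496 (r = 0.812, adjusted p = 0.175) or R63500 (0.141).

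Lyz1 had 2.51, 7.07 and 10.1 CPM in the lowest, median and highest library, and the ratio of Lyz2 to Lyz1 in RPKM was 53.4 to 208. R63500, at 8.54 to 10.1 CPM, was 2.65-fold over R62848, at 2.51 to 5.28 CPM (log2 1.41, adjusted p = 0.0243). Each range overlapped with that of another code. The call was lost without R62848_1, R62848_3 or R63500_2 (adjusted p 0.0566 to 0.0704) and without R62848 or R63500 as a whole (0.103 to 0.111). Of the 6 Paneth cell markers, Defa17 had no count in any of the 17 libraries, Defa24 none in 16, Defa30 none in 15 and Ang4 none in 13. Itln1, an intelectin, had 0.096, 1.44 and 51.5 CPM in the lowest, median and highest library. Defa24, Defa30, Ang4 and Itln1 all had their highest value in R62850_1, with 1.61, 0.445, 2.45 and 51.5 CPM, and Lyz1 was 9.62 CPM there, second to R63500_2. R63500, the code with the highest mean of Lyz1, had the lowest code mean of Itln1. Mmp7, a matrix protease that other epithelia also express, had 49.6 to 310.1 CPM and made up most of the summed level of the list, 50.8 to 313 CPM. The part of Paneth cell transcripts in the Lyz1 values was not tested. Lyz1 and Lyz2 had r = 0.545 within codes (exact permutation adjusted p = 0.204).

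**Figure D5:**
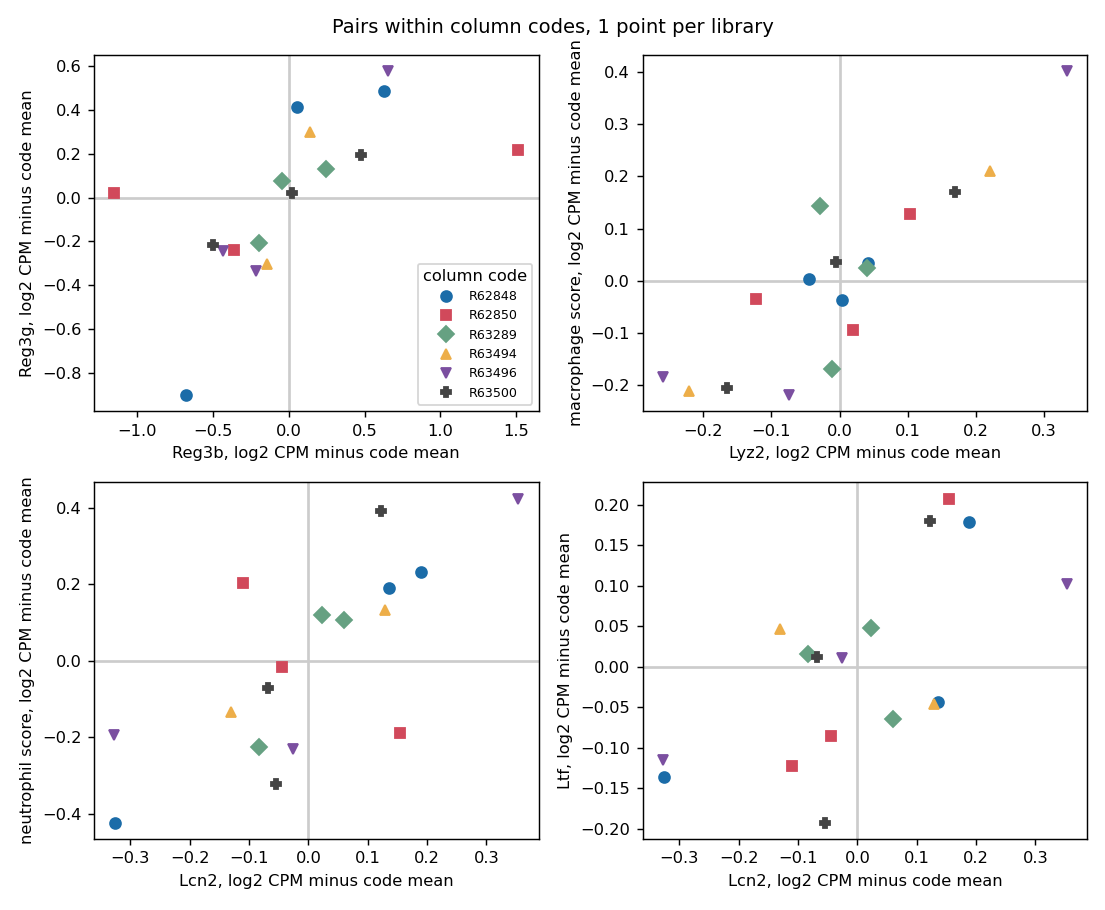
Relations within column codes for Reg3b and Reg3g, Lyz2 and the macrophage score, Lcn2 and the neutrophil score, and Lcn2 and Ltf: each point is 1 of 17 libraries, and both axes give log2 CPM minus the mean of the library's code. All 4 clouds rise to the right (r = 0.628, 0.874, 0.724 and 0.633), and in the Reg3 panel R62850_1 and R62850_3 lie at the far left and far right of Reg3b with little difference in Reg3g.

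The other defence genes ranged from a median RPKM above that of each of the 10, as for Igkc, to no counts. Of 88 genes in 9 such lists, 86 were in the table, 69 passed the filter and 50 of these differed between codes (72.5%, beside 41.9% of all genes tested), with a median code distance of 1.17. All 9 lectins of the list differed. Some of them had a median near 0 and were highest in R62850, such as Zg16 with a median of 0.279 CPM. Such genes can pass the filter through the code where they are high, so their calls, also within the 50, carry little weight. Outside the Reg family and Zg16, Lgals3, a galectin of macrophages and epithelium, was 52.4, 74.3 and 553 CPM in the lowest, median and highest library, R63500 over R63494 (log2 2.62, adjusted p = 1.04e-07). Lgals4, a galectin of gut epithelium, stayed within 325 to 614 CPM (log2 0.72, adjusted p = 0.00031).

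Classical antimicrobial peptides were sparse. Of 11 peptides and enzymes 4 passed the filter, and all 4 differed between codes, beside 41.9% of all genes tested. The epithelial defensin Defb1 had 1.15 to 9.16 CPM, highest in R63500 (log2 2.61, adjusted p = 4.7e-05), and Lypd8, which binds flagellated bacteria in the colon, had 0.149 to 118 CPM, highest in R63494 (log2 6.67, adjusted p = 8.74e-08). Ang had 4.12 to 19.7 CPM and Rnase4, a ribonuclease that shares its locus, 50.1 to 101 CPM.

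Of 11 genes for proteins that bind bacterial wall products, 6 passed the filter and 5 of these differed, beside 41.9% of all genes tested. A few were abundant and the rest were at or near 0. Among the latter were Bpi at 0 to 1.06 CPM (adjusted p = 0.0328) and Pglyrp4 at 0.389 to 6.78 CPM (adjusted p = 0.0207). The median of Bpi was 0.391 CPM. Such a gene can pass the filter through the code where it is high, so the call of Bpi carries little weight. Pglyrp1, a peptidoglycan recognition protein, stood at a median of 1099 RPKM, between Pigr and Wfdc2, with a narrow range of 628 to 1111 CPM (log2 0.45, adjusted p = 0.00697). Cd14, the endotoxin coreceptor, had 283 to 497 CPM (log2 0.60, adjusted p = 0.00411). Lbp, which hands endotoxin to CD14, was highest in R62848 and lowest in R63494 (181 to 623 CPM, log2 1.56, adjusted p = 1.45e-07).

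Most genes of the oxidant list had their highest code mean in R63494, as Dmbt1 and Ltf did. Duox2, the epithelial oxidase that releases hydrogen peroxide, had 1517, 2008 and 2911 CPM in the lowest, median and highest library and was highest in R63494 (log2 0.86 over R62850, adjusted p = 0.00081). Its maturation factor Duoxa2 (335 to 650 CPM, log2 0.71 over R62848, adjusted p = 0.000447) and the nitric oxide synthase Nos2 (178 to 580 CPM, log2 1.26 over R62850, adjusted p = 3.78e-05) had their highest code mean there as well. Duox1, a second epithelial oxidase at 1.45 to 8.23 CPM, was highest in R63500 instead (log2 1.75 over R63496, adjusted p = 0.0002), and the peroxidase gene Lpo, at 0.0674 to 1.56 CPM, did not pass (adjusted p = 0.504). In all, 5 of 6 tested genes of this list differed, beside 41.9% of all genes tested.

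Of the 22 tested cytokines, receptors and regulators linked to the control of such genes, 15 differed (68.2%, beside 41.9% of all genes tested). Their median distance of 0.749 was close to the 0.714 over all genes. Cytokine transcripts differed widely in level. Il17a had a median of 0.223 CPM and at most 3.44 CPM, highest in R63289 (adjusted p = 0.00854). A gene so near 0 can pass the filter through the code where it is high, so the call of Il17a carries little weight. Il6 had a median of 0.639 CPM and at most 12.46 CPM, highest in R63500 (adjusted p = 0.00026). Il1b had 31.9, 102 and 186 CPM in the lowest, median and highest library, R63496 over R63500 by 1.72 on the log2 scale (adjusted p = 3.91e-05). Zc3h12a, which encodes a ribonuclease that restrains inflammatory transcripts, stayed within 126 to 203 CPM (log2 0.57, adjusted p = 0.00321). Cebpb, a transcription factor of the acute phase, had 115 to 192 CPM and did not pass (adjusted p = 0.0605).

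The genes whose levels were most like each of the 10 within codes were listed by Pearson's r over 17 libraries, as a description without p: each is the top of 19412 values. For Reg3b these were Reg1 (r = 0.958), a lectin gene of the same family, and Ero1lb (0.915), an oxidase of the endoplasmic reticulum. Reg3b lay farthest from its code mean in R62850_1 and R62850_3, and Reg1 was highest in R62850_3. For Lyz2 the nearest genes were Ighv1-84 (0.928), an immunoglobulin variable gene with a median of 1.98 CPM, and Ctss (0.927), the cathepsin of antigen-presenting cells. Wfdc2 was most like Sod1 (0.966) and Adh5 (0.938), and Reg3g like Fam3b (0.96) and Pxk (0.953). Dmbt1 was most like Sidt1 (0.939) and 4933427D14Rik (0.915) and Ltf like Tyms (0.941) and Tspan12 (0.92). Slpi was most like Robo4 (0.908) and Ftl1 (0.899), and Lyz1 like Gmpr (0.896) and Zfp87 (0.884). No other gene of the 10 was among the nearest genes of any of them.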

How the data were processed

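The deposited table gave whole read counts per gene, not normalized, for 17 libraries, with gene lengths and mm10 positions. A second set of 17 columns, FPKM by their names, was left out. STAR 2.6.1c, featureCounts and edgeR 3.40.2 are named in the submitters' processing notes, without roles. RPKM were computed from the counts. Column names matched no sample title, so columns were tied to the group bile duct only.

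Counts were filtered with filterByExpr over the 6 codes, TMM-normalized and tested with edgeR 4.0.16 (R 4.3.3), quasi-likelihood F test, Benjamini-Hochberg adjusted p below 0.05 over all 19412 genes kept. The coefficient of variation within codes, which edgeR terms biological but which may be technical here, was 17.5%. Log2 CPM used a prior count of 2. Pairs were correlated after removing code means, with exact 2-sided tests over 15552 within-code orders, adjusted over 10 pairs. Wilson intervals cover counting error only. limma 3.58.1 and DESeq2 1.42.0 served as alternatives, beside other scalings, no filter, acinar genes left out, and each library or code left out. Of these steps, only the edgeR test between codes was tried on simulated counts.

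The members and lists were chosen with earlier results of these data known. The named genes were the 10 members, the top 3 of each list by median RPKM, the 2 kept genes of each list with the widest log2 range, and for each member the 2 nearest genes by r. The nearest genes of Pigr and Lcn2 are not reported here. Jchain, Adgre1 and Defa30 stand in the table as Igj, Emr1 and Gm15284, and 2 list genes, Il36a and Il36g, were not matched. Promoters came from RefSeq (9 of 10 members matched) and coding sequences from GENCODE M21.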

Additional observations from a re-analysis of the deposited data

How the results depend on the processing

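Over 29 alternatives the number of the 10 genes that differed between codes was 7 to 9 (7 to 9 with single libraries left out), that of listed defence genes 41 to 62 (47 to 53) and that of all genes 6682 to 9529 (7134 to 8458). The median share of counts taken by the 10 genes was 5.68% to 6.15% over 26 alternatives. The number of correlated pairs was 1 of 10 as reported. It was 0 without the 2 libraries farthest from the median, 0 without code R62848, R63289, R63496 or R63500, and 2 without R62850, and it ran from 0 to 3 when single libraries were left out. With an R63494 library left out, the lone remaining one is assumed to vary like the others. The calls that changed (Dmbt1, Reg3g, Lyz2, Lyz1 and the pairs) are given with their values above, and their cause was not tested. Among 260 alternative values of r, 3 changed sign, all of pairs that had not passed. No paired analysis was possible because the labels give 1 group and the columns carry no sample numbers. Depth limits Lyz1, at 48 to 185 counts per library.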
